A study of Homo sapiens with 4 samples.

Results

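RNA-Seq values of 9 genes of the major histocompatibility complex (MHC) class I antigen presentation pathway were compared between MDA-MB-231, a human triple-negative breast cancer cell line, and LM2-4175, a line isolated from it that spreads to the lung. The genes were the heavy chains HLA-B, HLA-C, HLA-E and HLA-F, the light chain B2M, the peptide transporter subunits TAP1 and TAP2, the loading factor TAPBP (tapasin) and the transactivator NLRC5. They were found by gene name in the deposited table, where they took 10 of 57815 rows because TAP2 names 2 rows. Both lines were untreated cultures grown in DMEM with serum, and 2 RNA libraries were sequenced from each, 4 in all. Whether LM2-4175 is 1 clone is not given in the sources used here. The authors combined the libraries of a line into 1 value of FPKM (a level per transcript length and per sequenced fragment) with a lower and an upper bound. No difference below therefore has a replicate check, and no p-value is given. The confidence level of the bounds, and whether they cover the spread between libraries, are not stated in the sources used here.

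Class I molecules show peptides from inside the cell to CD8 T cells, and their loss or lowering on tumour cells is a known route of escape from these T cells. The proteasome cuts proteins into peptides, the TAP transporter carries the peptides into the endoplasmic reticulum, and tapasin with general chaperones helps to load them onto a heavy chain bound to beta-2-microglobulin. NLRC5 acts as a transactivator of class I promoters, and interferons raise the transcription of most genes of the pathway.

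HLA-B and HLA-C had lower values in LM2-4175, and B2M and NLRC5 were within their bounds of each other. The 5 remaining genes, HLA-E, HLA-F, TAP1, TAP2 and TAPBP, were listed at or near 0 in both lines, as were most of their neighbours on chromosome 6. A gene entered the comparison when its status was OK and its mean FPKM was at least 0.5, which 4 of the 9 genes and 13911 of 57815 rows did. It was called where the ratio of FPKM + 1 was at least 1.5-fold and the bounds of the lines did not overlap. HLA-B and HLA-C were called lower and no member was called higher. Over all rows compared, 9.27% were called, 4.61% lower and 4.67% higher. On the fold alone, without the bounds, the members past it were also HLA-B and HLA-C, where 22.1% of all rows were past it and 11.8% on the lower side.

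The promoters of the 3 pathway genes that carry the contrast are shown because HLA-B and HLA-C were lower in LM2-4175 and B2M, the partner of both, was not called. Each sequence holds the 200 bases before the start of the canonical transcript on GRCh37 in the direction of transcription: chr6:31324957-31325156 (minus strand) for HLA-B, chr6:31239870-31240069 (minus strand) for HLA-C and chr15:45003515-45003714 (plus strand) for B2M. The gene spans given further on include transcripts with other starts, so the windows lie partly or wholly within them. Capitals mark matches, on either strand, to the interferon element in a short (GAANNGAAA) or a long spacing (GAAA, any 2 bases, GAAA), the kappa B motif of NF-kB factors, CCAAT of NF-Y, and TGACG of CREB and ATF factors.
HLA-B: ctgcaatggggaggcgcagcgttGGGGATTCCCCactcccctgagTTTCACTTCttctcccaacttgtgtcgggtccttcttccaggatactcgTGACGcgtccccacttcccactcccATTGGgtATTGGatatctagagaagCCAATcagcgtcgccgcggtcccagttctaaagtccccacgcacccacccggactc
HLA-C: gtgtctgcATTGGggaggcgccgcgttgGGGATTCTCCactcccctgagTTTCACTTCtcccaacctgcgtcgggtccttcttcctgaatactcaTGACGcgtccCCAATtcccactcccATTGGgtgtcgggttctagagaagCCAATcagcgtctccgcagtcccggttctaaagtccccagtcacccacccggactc
B2M: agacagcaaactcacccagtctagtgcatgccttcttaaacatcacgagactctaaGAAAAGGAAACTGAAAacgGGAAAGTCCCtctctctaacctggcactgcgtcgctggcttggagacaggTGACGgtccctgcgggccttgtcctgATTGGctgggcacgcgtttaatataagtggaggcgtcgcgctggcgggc

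The HLA-B and HLA-C promoters were identical in 179 of 204 alignment columns (87.7%), whereas every other pair among HLA-B, HLA-C, B2M and NLRC5 reached 42.3% to 47.9%. All 3 printed promoters held a kappa B match, a TGACG match and at least 1 CCAAT match, and in each the TGACG match lay between the kappa B and interferon matches and the CCAAT match nearest the start. In HLA-B the short interferon element lay at positions -155 to -147 counted from the start, just after 2 overlapping kappa B matches at -177 to -168 and -176 to -167. In HLA-C it lay at -151 to -143, after a kappa B match at -172 to -163. B2M held instead 2 overlapping long elements, at -144 to -135 and -138 to -129, with the kappa B match after them at -125 to -116. The TGACG match lay at -106 to -102 in HLA-B, at -105 to -101 in HLA-C and at -75 to -71 in B2M.

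Among 19861 promoters of the same length, 4.46% held the short interferon element, 2.20% the long one, 9.37% a kappa B match, 30.4% CCAAT and 22.7% TGACG. The STAT motif TTCNNNGAA, held by 4.35% of promoters, was found in none of the members searched, and the NLRC5 window (chr16:57023269-57023468, plus strand) held no match to any of the motifs. The short interferon element was thus in the 2 members called lower and the long one in the member with the highest listed level. This is a description of these letters and not of factor binding. The short spacing and the STAT motif were added after a first search.

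HLA-B, a classical heavy chain that presents peptides to CD8 T cells, was listed at 30.5 FPKM (bounds 22.4 to 38.6) in MDA-MB-231 and at 11.9 FPKM (bounds 8.35 to 15.4) in LM2-4175. The level was 2.57-fold lower in LM2-4175, a ratio of 0.390. Taking the bounds to lie 2 standard errors from the value, which the sources used here do not state, gave an approximate 95% interval of 0.264 to 0.576 for this ratio, and the intervals and SEs below rest on the same assumption. On the scale of log2(FPKM + 1) the difference was -1.29 (SE 0.27), and log2 differences below are on this scale. The bounds left a gap between the lines, and HLA-B stood at rank 3682 in MDA-MB-231 and at rank 6862 in LM2-4175 among all rows ordered by FPKM. In bulk RNA, fewer cells that express a gene and less of its RNA per cell cannot be told apart.

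HLA-C, the other classical heavy chain compared and also a ligand of inhibitory receptors of natural killer cells, was listed at 4.81 FPKM (bounds 2.996 to 6.63) in MDA-MB-231 and at 1.79 FPKM (bounds 0.953 to 2.62) in LM2-4175. It was 2.69-fold lower, a ratio of 0.372 with an interval of 0.206 to 0.670, and its difference on the log2(FPKM + 1) scale was -1.06 (SE 0.31). The ratios of HLA-B and HLA-C lay close together, and the interval of each held the ratio of the other. The level of HLA-B was 6.34 times that of HLA-C in MDA-MB-231 and 6.65 times in LM2-4175.

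B2M, the light chain shared by all class I molecules, had the highest listed level of the members, at rank 32 in both lines. It was listed at 1922 FPKM (bounds 1464 to 2380.5) in MDA-MB-231 and at 1704 FPKM (bounds 1305 to 2102) in LM2-4175. The bounds overlapped, the ratio was 0.886 (0.639 to 1.23) and the log2 difference was -0.17 (SE 0.24). The interval holds ratios on both sides of 1, so a small difference of either sign was not detectable. The level of B2M was 63.0 times that of HLA-B in MDA-MB-231 and 143 times in LM2-4175. Relative to HLA-C the level of B2M was 399.6 times in MDA-MB-231 and 952.5 times in LM2-4175. HLA-B and HLA-C lie in a stretch of chromosome 6 where most genes were listed at or near 0, described below, and B2M does not. These ratios, and those of HLA-B to HLA-C, are therefore of listed values and are not read as ratios of transcripts in the cells.

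NLRC5 was listed at 9.43 FPKM (bounds 4.49 to 14.4) in MDA-MB-231 and at 8.23 FPKM (bounds 3.07 to 13.4) in LM2-4175. Its ratio was 0.873 with a wide interval of 0.392 to 1.94, and its log2 difference was -0.18 (SE 0.53). The interval reached down almost to the ratio of HLA-B and up past 1.5-fold higher, so a difference of either sign was not detectable.

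The order of levels was B2M, HLA-B, NLRC5 and HLA-C in both lines. In MDA-MB-231 the bounds of the neighbours NLRC5 and HLA-C overlapped, and in LM2-4175 those of HLA-B and NLRC5 did. HLA-B stood at 3.24 times the level of NLRC5 in MDA-MB-231 and at 1.45 times in LM2-4175. Since HLA-B and HLA-C lie in the chromosome 6 stretch and B2M and NLRC5 do not, this order is of listed values only. All 4 members with values had a ratio below 1, with a median log2 difference of -0.62 beside -0.04 over the 13911 rows compared, but the median rests on 2 genes that were called and 2 that were not.

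**Figure D1:**
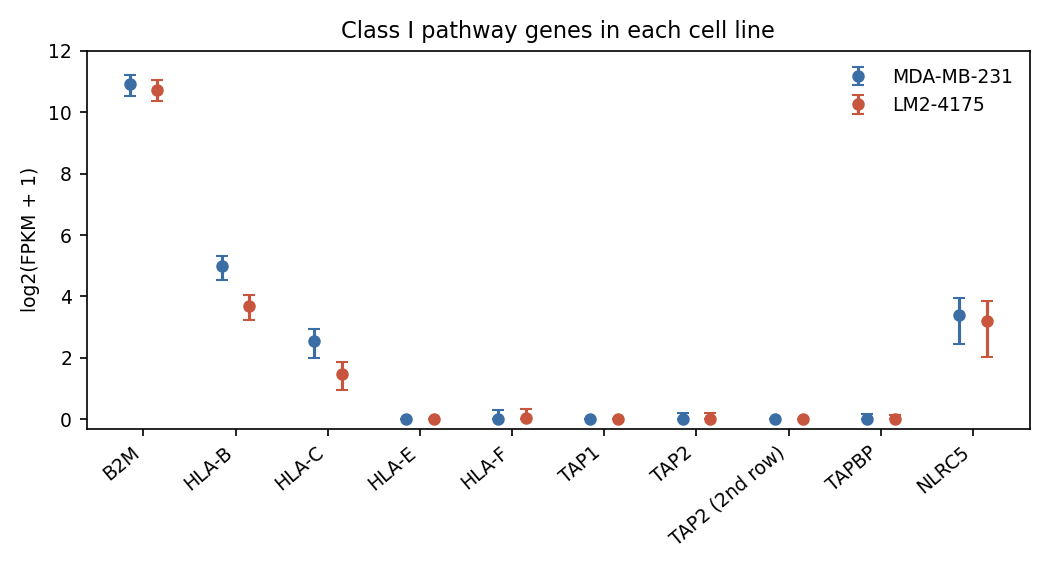
Level of each class I gene in MDA-MB-231 (blue) and LM2-4175 (red). The vertical axis is log2(FPKM + 1), points are the authors' pooled values and bars run from their lower to their upper bound. The bounds of HLA-B and HLA-C do not overlap between the lines, those of B2M and NLRC5 do, and the other rows sit at or near 0.

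The 5 members without usable values cover the rest of the peptide loading route. HLA-E, a nonclassical heavy chain read by natural killer cells, was listed at 0 in both lines, and so was TAP1, the transporter subunit that pairs with TAP2. HLA-F, another nonclassical heavy chain, was listed at 0.00998 FPKM (upper bound 0.241) in MDA-MB-231 and at 0.0190 FPKM (upper bound 0.253) in LM2-4175. TAP2 was listed at 0.00115 FPKM and 0.000536 FPKM, and the second row of that name, an overlapping gene model, at 1.74e-08 and 1.75e-08 FPKM. TAPBP had 0.00199 FPKM in MDA-MB-231 and 0.00126 FPKM in LM2-4175. None of these values exceeded 0.0190 FPKM and no upper bound exceeded 0.253 FPKM, so no difference was formed for any of them.

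These zeros were not particular to the class I genes. On GRCh37, 7 of the 9 members lie on chromosome 6, spread over 3.59 Mb from HLA-F (chr6:29690552-29706305) to TAPBP (chr6:33267471-33282061). HLA-E (chr6:30457286-30461971), TAP2 (chr6:32789610-32806516) and TAP1 (chr6:32812986-32821593) lie between these, together with HLA-B and HLA-C. Of the 147 protein-coding genes from HLA-F to TAPBP, 113 were listed at 0 in both lines and 5 passed the filter (3.40%). The nearest coding genes on either side that passed were ZSCAN12, which ends at position 28367524, and BAK1, which starts at 33540324. Between them 5 of 179 coding genes passed (2.79%), against 41 of 72 (56.9%) in the 5 Mb before this stretch, 46 of 62 (74.2%) in the 5 Mb after it and 62.3% of all coding genes. A set of 17 genes of the stretch that most cells use, among them the ribosomal protein gene RPS18, the tubulin gene TUBB and the splicing helicase gene DDX39B, was picked after the values had been seen. Of these 17 genes 14 were listed at 0 in both lines, and the highest value was 0.0756 FPKM. A listing at 0 here is therefore not read as absence of the transcript, and the cause of the zeros was not tested.

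**Figure D2:**
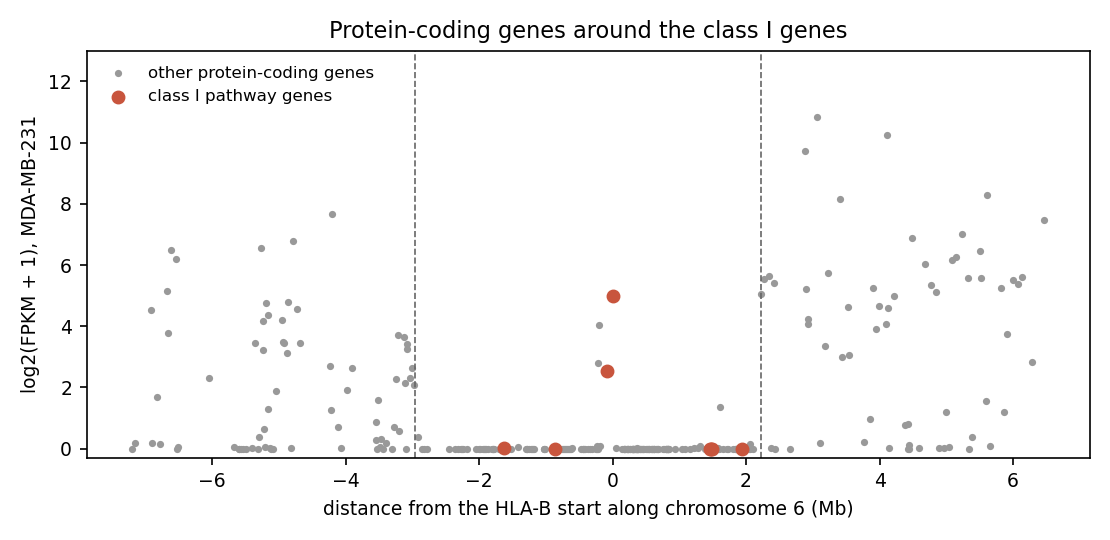
Protein-coding genes around HLA-B on chromosome 6 in MDA-MB-231. The horizontal axis is the distance from the start of HLA-B in Mb, the vertical axis is log2(FPKM + 1), red points are class I pathway genes, and dashed lines mark ZSCAN12 and BAK1. Between the dashed lines 5 of 179 genes passed the filter, HLA-B and HLA-C among them, and genes on both sides span the usual range of levels.

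HLA-B (ENSG00000234745, chr6:31321649-31334844, minus strand) and HLA-C (ENSG00000204525, chr6:31236526-31239907, minus strand) lie inside the same stretch, and their values carry that limit. The other 3 coding genes there that passed were named after their values had been seen. TCF19 had 15.6 FPKM in MDA-MB-231 and 9.67 FPKM in LM2-4175 (log2 difference -0.63), CCHCR1 at 5.91 and 3.22 FPKM (-0.71) and BRD2, a bromodomain protein, at 1.54 and 1.21 FPKM (-0.20). All 3 were lower in LM2-4175 by value, with overlapping bounds, so only the 2 class I genes were called. TCF19 and CCHCR1 were past 1.5-fold lower when the bounds were not used, and BRD2 was not. Just past the stretch, BAK1, a promoter of apoptosis, was called lower, from 31.9 FPKM (bounds 24.4 to 39.3) to 17.8 FPKM (bounds 13.4 to 22.2). Among coding genes that passed, the median log2 difference was -0.35 in the 5 Mb before the stretch and -0.33 in the 5 Mb after it, against -0.15 on chromosome 6 outside the stretch and -0.05 over all coding genes. All 8 calls in the 5 Mb before it were lower and were of histone cluster genes, such as HIST1H1C (93.6 and 13.5 FPKM) and HIST1H2BK (203 and 25.3 FPKM), and without histone genes the median there was -0.20. In the 5 Mb after it, where no histone gene passed, 8 of 46 coding genes were called lower (17.4%) and 1 higher, against 4.80% lower over all coding genes compared. Inside the stretch the median of the 5 coding genes that passed, HLA-B and HLA-C included, was -0.71. The differences of HLA-B and HLA-C were larger than these medians, but medians hide the spread of single genes. In the 5 Mb after the stretch DEF6, picked after its values had been seen, had 14.1 FPKM in MDA-MB-231 and 2.06 FPKM in LM2-4175. HLA-B and HLA-C are therefore not read as set apart from the region, and the part of the region in their differences was not tested.

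Reads that could belong to several genes also limit these values. Of the exon bases of the canonical HLA-B transcript, 23.7% are overlapped on either strand by exons of another gene model, whereas HLA-C, HLA-E, B2M and NLRC5 have no such overlap. Overlap covered 21.5% of TAP1, 35.8% of TAP2, 40.5% of TAPBP and 42.0% of HLA-F. No window of 100 bases in the HLA-B transcript, and 4 of 1443 windows in HLA-C, recurred without mismatch in a transcript of another gene of the annotation. The search skipped transcripts of the same gene name, and near matches were not counted. It therefore cannot tell whether reads of these genes were assigned without ambiguity. Whether counting used strand is not stated, so reads of overlapping genes cannot be told apart.

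B2M (ENSG00000166710, chr15:45003556-45011049, plus strand) and NLRC5 (ENSG00000140853, chr16:57023397-57117443, plus strand) lie outside chromosome 6. Within 500 kb of B2M 8 genes were compared, none was called under the fold and bounds, and their median log2 difference was -0.06. Within 500 kb of NLRC5 20 genes were compared, with a median of -0.17, 3 called higher and 1 lower. Called higher were the metallothionein genes MT1X (log2 difference 2.30) and MT1F (1.40) and the noncoding RP11-249C24.10 (1.12). Called lower was CX3CL1, a chemokine for T cells and natural killer cells, from 5.31 FPKM (bounds 3.84 to 6.79) in MDA-MB-231 to 0.330 FPKM (bounds 0.134 to 0.526) in LM2-4175. NLRC5 thus sat among neighbours of both signs.

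Lists of genes that work with the pathway, or that interferons induce, were read the same way. Most calls in them were of interferon-stimulated genes, which are not themselves class I pathway genes. With 9.27% of all rows called, a list of a few genes can hold few calls or none. The low counts in the small lists are therefore not read as a trait of the pathway. The class I-like heavy chains and ligands of the natural killer receptor NKG2D had 7 of 13 genes compared, 0 called higher and 1 lower, with a median log2 difference of -0.32. The gene called was FCGRT, the heavy chain of the neonatal Fc receptor, which also pairs with B2M, at 22.9 FPKM (bounds 16.2 to 29.6) in MDA-MB-231 and 8.07 FPKM (bounds 5.30 to 10.9) in LM2-4175. Its ratio of 0.353 was close to those of HLA-B and HLA-C.

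None of the 12 chaperones and trimming enzymes was called, and their median log2 difference was -0.20. The most abundant were CALR (calreticulin), at 847 and 616 FPKM, and CANX (calnexin), at 509.6 and 538 FPKM in MDA-MB-231 and LM2-4175. ERAP1, which trims peptides to the length that fits the groove, was picked after its values had been seen and was listed at 34.7 FPKM (bounds 1.98 to 67.5) and 25.1 FPKM (bounds 1.70 to 48.4). These genes lie outside the chromosome 6 stretch and had values of the usual size, whereas tapasin and the transporter had none that could be compared. The tapasin-related peptide editor TAPBPL, also named after its values had been seen, was listed at 2.15 and 2.41 FPKM and was not called.

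Of the 6 genes of the immunoproteasome and the proteasome activator, 4 were compared without a call, and their median was -0.27. The inducible subunit genes PSMB8 and PSMB9, named here for being at 0, lie beside the TAP genes in the chromosome 6 stretch and were listed at 0 in both lines. PSME1, an activator subunit, was listed at 183 FPKM in MDA-MB-231 and 141 FPKM in LM2-4175, and PSME3 at 143 and 129 FPKM. Of the 3 constitutive catalytic subunits none was called (median -0.31), with PSMB6 at 206 and 166 FPKM and PSMB7 at 211 and 159 FPKM.

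Factors that act on class I promoters were not called in either direction. All 14 passed the filter, 7 were higher and 7 lower by value, and the median was 0.01. RELA, a subunit of NF-kB, was listed at 61.2 FPKM (bounds 45.3 to 77.2) in MDA-MB-231 and 53.7 FPKM (bounds 26.6 to 80.8) in LM2-4175. RFXANK, a subunit of the RFX complex through which NLRC5 acts, was listed at 45.1 and 46.3 FPKM. IRF1, which binds interferon elements, was the 1 factor past 1.5-fold when the bounds were not used, at 33.5 FPKM (bounds 24.0 to 43.1) and 20.4 FPKM (bounds 14.4 to 26.3), a log2 difference of -0.69. Its bounds overlapped between the lines, although the interval of its ratio, 0.407 to 0.907, lay below 1. The paper names IRF1 among the regulators that interacted with many others in LM2-4175. Its motif search kept only factors that its own test had found to differ in expression. A factor not called here is therefore not read as unchanged.

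Among 11 interferon receptors and signalling genes 0 were called higher and 1 lower, with a median of -0.21. IFNGR2, a chain of the interferon gamma receptor, was listed at 54.1 FPKM (bounds 38.1 to 70.0) in MDA-MB-231 and 25.8 FPKM (bounds 17.8 to 33.7) in LM2-4175, a log2 difference of -1.04. Without the bounds, IFNAR1 (30.6 and 19.3 FPKM) and IFNAR2 (11.5 and 6.77 FPKM) were also lower by 1.5-fold, each with overlapping bounds. The other receptor chain, IFNGR1, was listed at 16.9 and 22.04 FPKM, and it and TYK2 were the 2 genes of the list with a positive difference.

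Interferon-stimulated genes were the list with the most calls. Of 18 genes, all compared, 8 were called lower and 0 higher, beside 4.61% lower and 4.67% higher over all rows compared. Their median log2 difference was -1.04, and 17 of 18 were lower by value. IFI27 was listed at 101 FPKM (bounds 70.0 to 132) in MDA-MB-231 and 1.65 FPKM (bounds 0.293 to 3.01) in LM2-4175, a log2 difference of -5.27. IFIT1, which binds foreign RNA, was listed at 63.0 and 5.34 FPKM (-3.34), and its relatives IFIT2 and IFIT3 had log2 differences of -2.46 and -2.38. The other 4 called, named after their values had been seen, were ISG15 (116 and 32.6 FPKM), MX1 (8.51 and 2.44 FPKM), BST2 (127 and 60.5 FPKM) and GBP1 (20.0 and 9.60 FPKM). The differences of HLA-B and HLA-C lay near the median of this list, while those of B2M and NLRC5 lay among the 6 genes of the list nearest 0, from GBP2 (-0.18) to IRF7 (0.03), none of which was called.

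**Figure D3:**
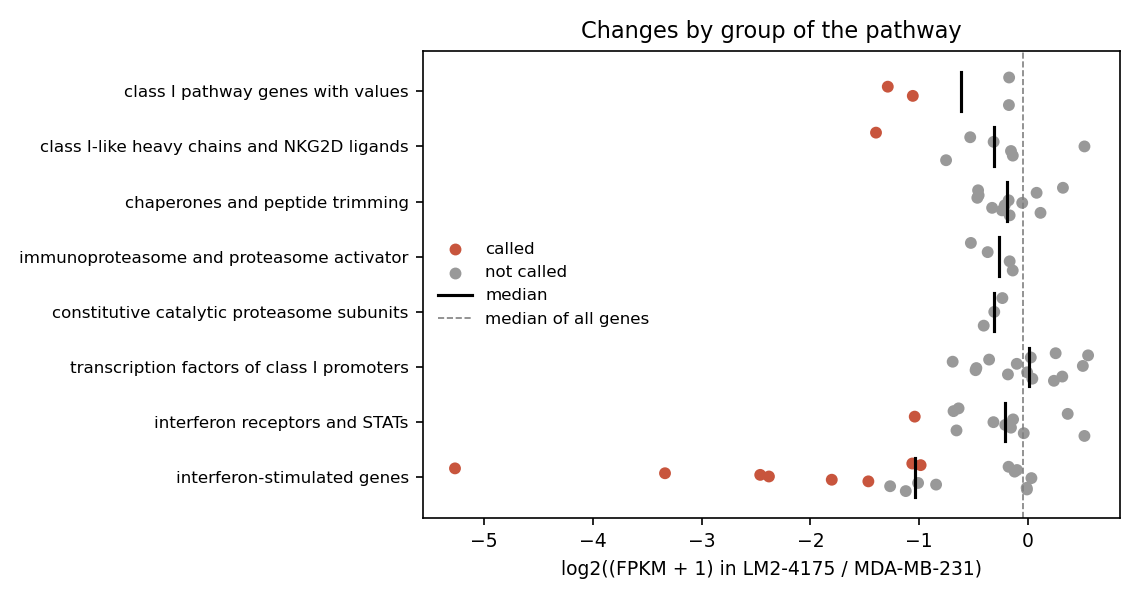
Differences in the class I genes and in the lists of related genes. The horizontal axis is log2((FPKM + 1) in LM2-4175 / MDA-MB-231), each point is a gene that passed the filter, red points were called, black lines are medians of the lists and the dashed line is the median of all genes compared (-0.04). Calls lie in 4 of the 8 lists, all on the lower side, with 8 of them among interferon-stimulated genes.

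**Figure D4:**
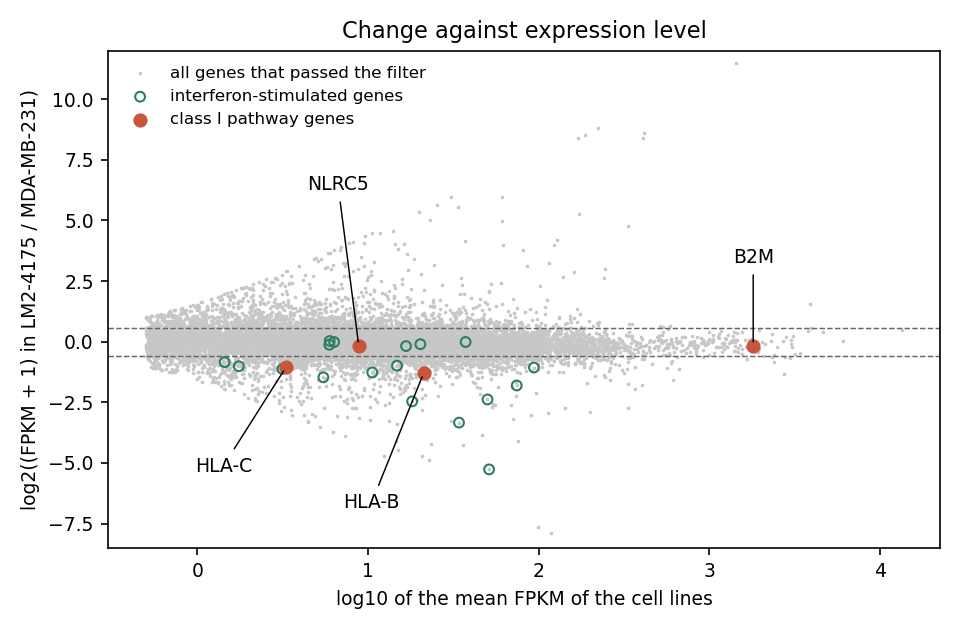
Difference against level for the 13911 rows compared (grey), with interferon-stimulated genes as green rings and the 4 class I genes as red points. The horizontal axis is log10 of the mean FPKM and the vertical axis is log2((FPKM + 1) in LM2-4175 / MDA-MB-231), with dashed lines at 1.5-fold. HLA-B and HLA-C lie below the lower dashed line, and NLRC5 and B2M lie between the dashed lines.

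Markers were read to set these values beside the identity of the cells. ESR1 and PGR, the hormone receptors absent from triple-negative cells, had 0.0331 and 0.0124 FPKM in MDA-MB-231, and 0.0186 and 0.00438 FPKM in LM2-4175. ERBB2, the other receptor that the term triple-negative refers to, had 34.95 FPKM in MDA-MB-231 and 22.76 FPKM in LM2-4175. It was not called. These RNA values alone therefore do not establish the triple-negative state. The 5 markers of MDA-MB-231, such as VIM, summed to 2467 FPKM there and 2560 FPKM in LM2-4175, and SPARC was called higher and CAV1 lower. The 14 white blood cell markers summed to 112 and 182 FPKM, of which the lysosomal gene CD68 made 107 and 179 FPKM, and 11 of them were under 0.5 FPKM in each line. Besides CD68, those above 0.5 FPKM were CD14 (1.17 and 1.75 FPKM) and CSF1R (2.92 and 0.790 FPKM), neither of them called. PTPRC, which all white blood cells carry, was at 0.0767 and 0.0263 FPKM, and CD3E, CD2 and NKG7 were listed at 0 in both. The 7 luminal and epithelial markers summed to 677 and 211 FPKM, of which KRT8 made 626 and 180.2 FPKM, with KRT8 and EPCAM called lower, and the part of this difference in those of HLA-B and HLA-C was not tested. Read depth cannot be read from the table, which holds no counts, and the aligned read pairs that the paper lists per library were not used here. Genes at 1 FPKM or more numbered 12528 in MDA-MB-231 and 12689 in LM2-4175.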

How the data were processed

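Total RNA of 4 samples (2 libraries each of MDA-MB-231 and LM2-4175) was sequenced as paired reads. The authors aligned reads to hg19 with TopHat2 and computed FPKM for GENCODE 19 genes with Cufflinks, with Cuffdiff between the lines, and deposited 1 FPKM with bounds per gene and cell line. Whether the index held alternative haplotype sequences, how reads with several alignments were counted, and whether the libraries came from separate cultures are not given in the sources used here. The table holds no columns of the authors' own comparisons and 0 columns of other samples.

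Differences were calculated as log2 of the ratio of FPKM + 1 (pseudocount 1) for rows of status OK with a mean of at least 0.5 FPKM (8 rows had another status). On this scale the difference of low genes is understated, so ratios of FPKM without a pseudocount are given beside it. Calls needed 1.5-fold and bounds that did not overlap. The standard error was 0.5 times the distance from the value to the upper bound, assuming bounds 2 standard errors away, which the authors do not state. It was carried to the ratio on the log scale, with 1.96 standard errors for approximate 95% intervals, and separately to the difference on the FPKM + 1 scale. The design had named limma for values per library, which could not be run on pooled values. Alternatives were other pseudocounts, filters, scalings and call rules, and each member left out. A filter of at least 1 FPKM and a median over all members as listed were added after the data were seen.

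Members, lists and rules were chosen with earlier results of these data known. Named are all members, the called genes of each list and of the neighbours (up to 4 with the largest difference), and the 1 or 2 most abundant of a list without calls. Others were named after their values had been seen, as said beside them or because they are past 1.5-fold without the bounds, at the edges of the chromosome 6 stretch, markers, or examples beside a value of the members. Positions, canonical transcripts and promoters came from GENCODE 44 on GRCh37, where 55535 rows had a match by Ensembl ID and 2280 had none. Python 3.11.15, NumPy 2.4.6, pandas 2.3.3, Biopython 1.88 (global alignment of promoters) and Matplotlib 3.10.9 were used. The values of some genes of the lists are not reported here. The call rule and the sign of the difference were tested on simulated data, with noise set by taking the bounds as 2 standard errors. The sequence, overlap and chromosome steps were not part of that test.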

Additional observations from a re-analysis of the deposited data

How the results depend on the processing

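HLA-B was called lower under all 7 alternatives tried for single genes, with a log2 difference of -1.36 to -1.19, and HLA-C under the 6 that kept it (-1.43 to -0.99). B2M (-0.17 to -0.07) and NLRC5 (-0.20 to -0.08) were not called under any of the 7. Alternatives that change only the filter on low values can drop a gene but cannot change its difference or its call, so they add no check of these genes. The members called numbered 2 in 11 of 12 alternatives and 1 at a mean of at least 5 FPKM, which HLA-C does not reach. The median difference of the members (-0.62) depended on which genes entered: it was -0.000965 with no filter on low values and over all members as listed, -0.18 at a mean of at least 5 FPKM, -0.18 without HLA-B or without HLA-C, and -1.06 without B2M or without NLRC5. At 1.5-fold without the bounds, 2 class I-like genes (ULBP3 beside FCGRT), 1 transcription factor and 4 interferon receptor and signalling genes were past the threshold, and 12 interferon-stimulated genes in place of 8. Over all rows, calls were 649 higher and 641 lower, 321 and 443 at a mean of at least 5 FPKM, and 1434 and 1640 at 1.5-fold without the bounds. The scalings gave 697 to 764 higher and 525 to 575 lower. No paired analysis was possible because the table gives 1 pooled value per cell line, and leaving out a replicate or fitting limma was not possible for the same reason. Depth cannot be read from FPKM alone, and the aligned read pairs that the paper lists were not used. Precision was lowest for NLRC5 (SE 0.53), and the chromosome 6 zeros leave 5 members without a comparison under the filter used.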

Other observations

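IFNGR2, the interferon receptor gene called lower in LM2-4175, lies on chromosome 21 (chr21:34775719-34851655 on GRCh37) beside other receptor genes of the same family. Its own log2 difference was -1.04. The 11 other genes compared within 500 kb of it were all lower in LM2-4175 by value, with log2 differences from -0.92 to -0.19 and a median of -0.57, and none was called. IFNAR1 (-0.64), IFNAR2 (-0.68) and IL10RB (-0.63), which lie within that distance, had overlapping bounds. Over chromosome 21 as a whole, 89 of 118 protein-coding genes compared were lower by value, with a median of -0.36, 12 called lower and 5 called higher. Over all 12082 protein-coding genes compared the median was -0.05, with 580 called lower (4.80%) and 563 called higher. MX1, called lower among the interferon-stimulated genes, and MX2, not called, also lie on chromosome 21. The genes of chromosome 21 were examined after the value of IFNGR2 had been seen. The part of the chromosome in the differences of IFNGR2, MX1 and MX2 was not tested.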
